A study of Mus musculus with 8 samples.

Results

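A set of 9 genes of retinoid metabolism and retinoic acid signalling was followed across haematopoietic stem cells (HSCs) of young and old mice. They were chosen by gene symbol from a deposited table of 19909 genes, and all 9 of the 9 listed symbols had a row: Aldh1a1, Aldh1a7, Dhrs3, Cyp26b1, Rara, Rarb, Rarg, Rxra and Rxrb. The choice was made with earlier results of the same libraries known, so the members' values describe these libraries and are not offered as an independent test.

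Bulk RNA sequencing was done on HSCs purified from bone marrow at steady state. Mice of every group were homozygous for the GFP-LC3 reporter (genotype Gfplc3/Gfplc3), which tags LC3, a marker of autophagosomes that is consumed during autophagic flux, with green fluorescent protein (GFP). The 3 groups were HSCs of young mice, not sorted by GFP, at 8 to 12 weeks of age (2 libraries), AThi HSCs of old mice aged over 24 months (3 libraries), which were the 33% with the lowest GFP signal, and ATlo HSCs from the same old mice (3 libraries), which were the 33% with the highest. The remaining old HSCs, between the 2 gates, were not analysed here. Because the young cells were not gated, age and gate cannot be told apart in either comparison with young. Libraries are named here by the tag in the deposited tables: D11 and D12 for young, and O10, O11 and O12 in each old fraction. A shared tag was taken to join an AThi library to its ATlo partner.

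Retinol, or vitamin A, is oxidised to retinaldehyde and then, by retinaldehyde dehydrogenases of the ALDH1A family, to retinoic acid. Retinoic acid binds the retinoic acid receptors RAR alpha, beta and gamma, which pair with retinoid X receptors (RXR) on DNA and exchange corepressors for coactivators. CYP26 enzymes degrade retinoic acid and DHRS3 reduces retinaldehyde back to retinol. In blood-forming tissue, retinoic acid signalling is known for its part in HSC dormancy and in granulocyte maturation, and ALDH activity is widely used to enrich stem and progenitor cells.

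Sequences of 3 members are shown. The coding sequences of Aldh1a1 and Aldh1a7 bear on how their reads could be counted, whereas the promoter sequences are description only. The first sequence is the 250 bases before the start of the RefSeq Rarb transcript at chr14:16575477-16575726 (GRCm38, minus strand). It is shown since Rarb is itself a known target of retinoic acid. Capitals mark the 2 arms of a direct repeat with a 5-base spacer (DR5), the arrangement bound by RAR and RXR pairs, which lies from 53 to 37 bases before the start.
Rarb: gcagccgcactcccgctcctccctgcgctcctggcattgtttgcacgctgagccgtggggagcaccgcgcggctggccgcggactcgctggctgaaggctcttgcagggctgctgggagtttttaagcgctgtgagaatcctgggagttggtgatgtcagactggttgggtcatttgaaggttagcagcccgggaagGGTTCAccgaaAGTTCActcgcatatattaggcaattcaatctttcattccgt
In RefSeq promoters of GRCm38, each from 250 bases before to 50 after a start, all 9 members were matched, with 18 starts in all. DR5 was found on either strand in 1 of these 18 windows, that of Rarb, and in 0.0974% of all 32851 promoters. The repeats with a spacer of 2 bases (DR2) and of 1 base (DR1) were found in 0 of the 18 windows and in 0.268% and 0.222% of all promoters. A match describes letters in the window and was not tested as a binding site.

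Aldh1a1 and Aldh1a7 are neighbours on chromosome 19 that lie on opposite strands, and reads of one can resemble the other. Their coding sequences have 1503 bases each and are identical at 1377 of them (91.6%), with 0 gaps. Of 1454 windows of 50 bases in the coding sequence, the length of 1 read, 151 (10.4%) were shared exactly. The first 120 coding bases are given below, with the 10 bases that differ in capitals.
Aldh1a1: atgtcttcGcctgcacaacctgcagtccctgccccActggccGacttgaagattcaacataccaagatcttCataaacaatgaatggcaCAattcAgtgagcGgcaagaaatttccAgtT
Aldh1a7: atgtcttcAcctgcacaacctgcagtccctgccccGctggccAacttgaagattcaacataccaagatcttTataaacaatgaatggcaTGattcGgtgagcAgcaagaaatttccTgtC
The promoters of the pair also share a stretch. The 250 bases before a RefSeq start of Aldh1a1 (chr19:20601718-20601967, plus strand) and before that of Aldh1a7 (chr19:20727557-20727806, minus strand) are given 5′ to 3′, with an identical run of 65 bases in capitals. Over the aligned windows 161 of 254 positions (63.4%) were identical.
Aldh1a1: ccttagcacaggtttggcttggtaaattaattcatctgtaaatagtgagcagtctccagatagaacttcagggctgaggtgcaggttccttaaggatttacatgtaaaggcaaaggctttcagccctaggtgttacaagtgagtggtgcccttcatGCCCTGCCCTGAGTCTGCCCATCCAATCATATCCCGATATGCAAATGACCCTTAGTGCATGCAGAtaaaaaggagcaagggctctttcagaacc
Aldh1a7: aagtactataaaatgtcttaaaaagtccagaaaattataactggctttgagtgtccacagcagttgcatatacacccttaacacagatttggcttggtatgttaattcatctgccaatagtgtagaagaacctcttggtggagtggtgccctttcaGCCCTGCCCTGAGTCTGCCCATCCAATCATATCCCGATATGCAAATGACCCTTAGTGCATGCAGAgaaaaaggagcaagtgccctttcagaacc

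The libraries held between 33960216 and 61341946 recovered reads, with 54512285 or more in each ATlo library and 45830216 or fewer in each other library. Member genes had from 84 reads (Aldh1a7) to 32570 (Aldh1a1) in a library. All 10 markers fixed for HSCs were present, and their summed level was 115378 to 141783 normalized counts in AThi, 86023 to 108356 in ATlo and 117861 to 119314 in young. Of 8 B cell markers 4 had a row; their sum was 10753 in young D12, 23853 in AThi O12 and 10098 in ATlo O12 but 636 to 989 in the other 5 libraries, each of which had 1 of the 4 markers at 0. Of 8 erythroid markers 6 had a row, and the same 3 libraries had the highest sums. These were 4941 in young D12, 1875 in AThi O12 and 3662 in ATlo O12, beside 323 to 1698 in the other 5. Of 8 T and NK cell markers 3 had a row, with sums of 1895 to 3124 in AThi, 1369 to 1479 in ATlo and 1091 to 1223 in young, and none at 0. The differences in this sum come from Klrb1c, with means of 2122 in AThi, 844 in ATlo and 364 in young, whereas Nkg7 (317, 461 and 396) and Cd4 (142, 114 and 397) did not follow it. Of 8 stromal and endothelial markers, which bear on Aldh1a1 and Cyp26b1 because such cells can express them, 5 had a row, with sums of 1558 to 2757 in AThi, 1175 to 2416 in ATlo and 2025 to 3246 in young, and none at 0. These overlapping sums cover single markers that moved in different directions: Kdr had means of 557 in AThi and 183 in ATlo beside 183 and 219.6 in the young libraries, while Pdgfrb had means of 635, 583 and 244 and Emcn of 803, 576 and 1863 in AThi, ATlo and young. Kdr was called higher in AThi against ATlo and against young, and Emcn lower in both old fractions against young, in the authors' deposited table. Mki67, a marker of dividing cells, was at 14140 to 20394 in AThi, 40270 to 47738 in ATlo and 16825 and 23152 in young. ATlo thus stood above both other groups, while the ranges of AThi and young overlapped. Xist, the RNA of the inactive X chromosome, was at 97743 in young D11. It was at 3869 in young D12, 5810 in AThi O12 and 2747 in ATlo O12, the libraries with the high B cell sums. In the O10 and O11 libraries of both old fractions it was at 171 or less. Young D11 thus stood apart in Xist from young D12 and from every old library. Whether the libraries differed in the sex of the mice was not tested, which limits the comparisons with young. Other sums moved with age. Of 8 granulocyte markers 7 had a row, with sums of 5503 to 6992 in AThi, 4094 to 6532 in ATlo and 2687 to 2808 in young. Much of this sum was Prtn3, with means of 4683 in AThi, 3673 in ATlo and 1862 in young. In ATlo, Ltf (28.7) and Camp (20.5) were near their young means (27.9 and 22.0). Of the 6 with an adjusted p, the authors' deposited table called 1 higher in each old fraction against young. Of all genes, 3.13% (AThi) and 2.37% (ATlo) were called higher. Of 6 megakaryocyte markers 5 had a row, with sums of 2600 to 3637, 3365 to 5309 and 1747 to 1924, and 4 of the 5 were called higher in ATlo against young in the authors' deposited table. All 4 multipotent progenitor markers had a row, with sums of 8733 to 11397, 10759 to 13058 and 14286 to 14947. The part of these differences in the members' values was not tested. In bulk RNA, fewer cells of a type and less RNA per cell cannot be told apart.

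Levels between genes were compared as normalized counts per kilobase of exon. In young HSCs Aldh1a1 stood at 1244 per kilobase, above Rxrb (145), Cyp26b1 (137), Rxra (114), Dhrs3 (104), Rara (75.6), Rarg (44.2), Aldh1a7 (44.1) and Rarb (39.6). In AThi HSCs Aldh1a1 (4215) was followed by Cyp26b1 (482), Dhrs3 (206), Rxra (197), Rarb (191), Rxrb (148), Rara (147), Rarg (99.5) and Aldh1a7 (60.6). In ATlo HSCs the order was Aldh1a1 (4727), Dhrs3 (221), Rxrb (167), Rxra (122), Cyp26b1 (106), Rarb (76.8), Rara (65.8), Rarg (60.6) and Aldh1a7 (51.7). Rarb thus held the last place in young HSCs and the fifth in AThi, while Cyp26b1 held the second place in AThi and the fifth in ATlo. Of the 8 pairs of neighbours in each order, library ranges overlapped in 6 in young, 4 in AThi and 6 in ATlo, so much of the ranking lies within the spread. The neighbours that did not overlap were Aldh1a1 and the next gene in all 3 groups, Rara and Rarg in young, Cyp26b1 and Dhrs3, Rara and Rarg, and Rarg and Aldh1a7 in AThi, and Rxrb and Rxra in ATlo. Aldh1a1 was the highest of the 9 genes in each of the 8 libraries.

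**Figure D1:**
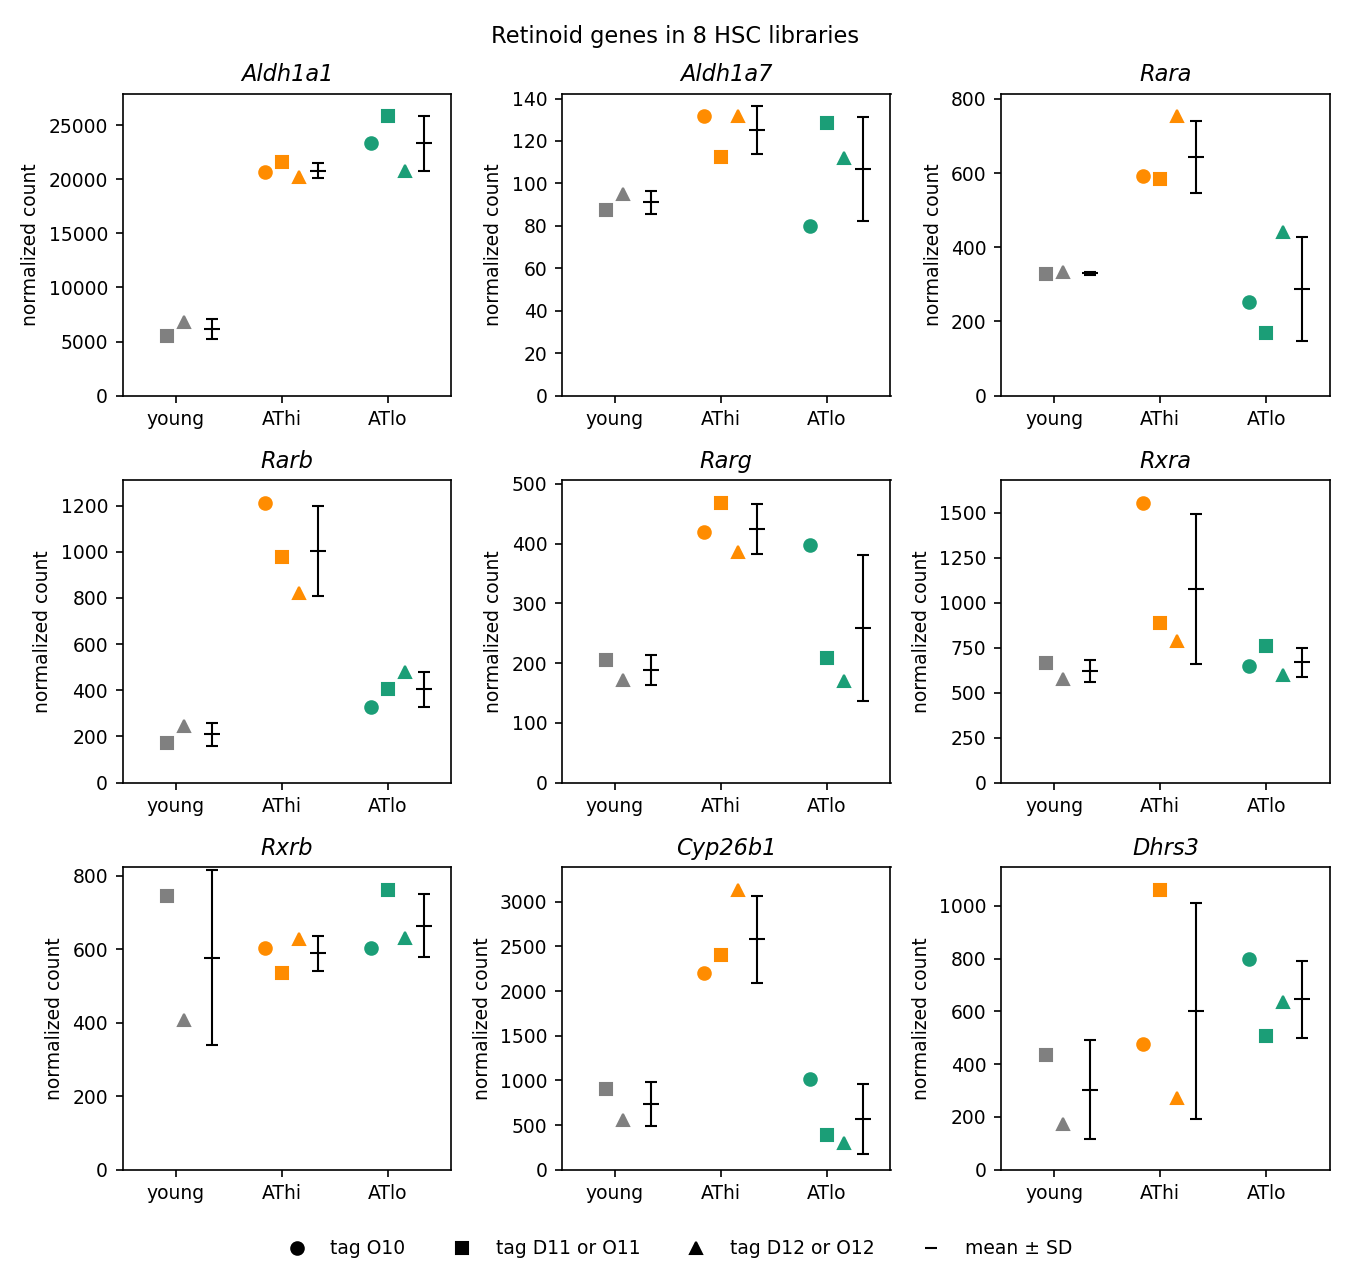
Normalized count of each of the 9 genes in every library, with 1 panel per gene, a linear axis from 0 and groups young, AThi and ATlo on the horizontal axis; points are libraries, and horizontal ticks with bars are group means ± SD. Aldh1a1 goes from 5489 and 6795 in young to at least 20187 in every old library, whereas Cyp26b1 and Rarb stand highest in the 3 AThi libraries.

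Aldh1a1, the retinaldehyde dehydrogenase that makes retinoic acid, was higher in both old fractions than in young HSCs, as were the summed granulocyte and megakaryocyte markers given above, whose part was not tested. The gene (ENSMUSG00000053279) lies on chromosome 19 from 20492715 to 20643465 on the plus strand of GRCm38. It was at 5489 and 6795 normalized counts in young D11 and D12, at 20630 (O10), 21610 (O11) and 20187 (O12) in AThi, and at 23383, 25857 and 20775 in the ATlo partners. Every old library lay above both young libraries, and within each tag the ATlo library was the higher by a small margin, while the ranges of AThi and ATlo overlapped. Group means were 6142 ± 924 in young (SD, n = 2), 20809 ± 728 in AThi and 23338 ± 2541 in ATlo (both SD, n = 3). Its log2 fold change, as the authors' deposited table has it, was 1.76 (SE 0.14, adjusted p 6.1e-32) for AThi against young and 1.93 (SE 0.14, adjusted p 3.1e-38) for ATlo against young, or 3.39-fold and 3.80-fold. The same entry for AThi against ATlo in the authors' deposited table was -0.17 (SE 0.13, adjusted p 0.52). An antisense gene, C730002L08Rik, overlaps Aldh1a1, and 555 exonic bases of Aldh1a1 lie within its span. Whether those bases lie in exons of the antisense gene was not tested. With the strand setting unknown as well, how their reads were counted is uncertain.

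Aldh1a7, the neighbouring paralog, stayed low. It lies on chromosome 19 from 20692953 to 20727562 on the minus strand (ENSMUSG00000024747). It was at 87.3 and 95.0 normalized counts in young, at 132 (O10), 112 (O11) and 132 (O12) in AThi, and at 80.1, 129 and 112 in ATlo. The 3 AThi libraries lay above both young ones, and the ATlo libraries spread from below the young values into the AThi range. For Aldh1a7 the authors' deposited table gave log2 fold changes of 0.23 (SE 0.41, adjusted p 0.85) for AThi against ATlo, 0.46 (SE 0.47, adjusted p 0.80) for AThi against young and 0.23 (SE 0.46, adjusted p 0.91) for ATlo against young. Aldh1a7 counts came to 1.40% to 1.59% of Aldh1a1 counts in young, 0.520% to 0.653% in AThi and 0.343% to 0.539% in ATlo. Given the shared coding windows above, how the counting divided reads between the paralogs is uncertain, and Aldh1a7 at 84 to 162 reads a library is the member this touches most.

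Dhrs3, the reductase that returns retinaldehyde to retinol and whose gene is a target of retinoic acid, varied widely within groups. It lies on chromosome 4 from 144892827 to 144928209 on the plus strand (ENSMUSG00000066026). It was at 435 and 172 normalized counts in young, at 476 (O10), 1060 (O11) and 270 (O12) in AThi, and at 797, 507 and 634 in ATlo. All 3 ATlo libraries lay above the young ones, but AThi ran from inside the young range to above the ATlo range. Within tags the difference on the log2 scale, AThi minus ATlo, was -0.74, 1.06 and -1.23, so the pairs did not share a direction. For Dhrs3 the authors' deposited table gave log2 fold changes of -0.10 (SE 0.48, adjusted p 0.95) for AThi against ATlo, 0.99 (SE 0.53, adjusted p 0.41) for AThi against young and 1.09 (SE 0.53, adjusted p 0.30) for ATlo against young.

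Cyp26b1, which degrades retinoic acid and is the only CYP26 gene among the members, had the largest fold between the group means of AThi and ATlo among the 9 genes, though not in every pair: in O10 the log2 differences of Rarb (1.88), Rxra (1.26) and Rara (1.22) exceeded its 1.11. It lies on chromosome 6 from 84571414 to 84593908 on the minus strand (ENSMUSG00000063415). It was at 2201 (O10), 2408 (O11) and 3133 (O12) normalized counts in AThi, at 1020, 384 and 304 in the ATlo partners, and at 906 and 557 in young. The lowest AThi library was above the highest of the other 5, and ATlo O10 stood well above the other 2 ATlo libraries and above both young ones. The AThi library exceeded its ATlo partner by 2.16-fold (O10), 6.27-fold (O11) and 10.3-fold (O12). Group means were 2581 ± 489 in AThi, 569 ± 392 in ATlo (SD, n = 3 each) and 731 ± 247 in young (SD, n = 2).

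In the authors' deposited table the log2 fold change of Cyp26b1 was 2.18 (SE 0.39, adjusted p 1.8e-06) for AThi against ATlo and 1.82 (SE 0.43, adjusted p 0.0013) for AThi against young, or 4.53-fold and 3.53-fold. For ATlo against young the authors' deposited table gave -0.36 (SE 0.43, adjusted p 0.81). With the quasi-likelihood test of edgeR on the recovered reads, the first comparison had an adjusted p of 0.051 and the second of 0.16. Leaving out young D12 gave an adjusted p of 0.11 for AThi against young with DESeq2, and leaving out ATlo O10 gave a log2 fold change of -1.08 (adjusted p 0.013) for ATlo against young. Without the 3 libraries tagged D12 or O12, a setting chosen after seeing the data, DESeq2 gave 1.72 for AThi against ATlo. It gave 1.35 for AThi against young, where 1 young library remained and the call was lost.

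Set beside Aldh1a1 per kilobase, Cyp26b1 stood at 9.84% to 14.3% of the Aldh1a1 level in AThi, 7.55% to 15.2% in young and 1.35% to 4.02% in ATlo. The degrading enzyme was thus low relative to the producing enzyme in the 3 ATlo libraries, and the AThi and young ranges overlapped. Aldh1a1 and Cyp26b1 are transcripts here, and enzyme activity and retinoic acid itself were not measured.

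**Figure D2:**
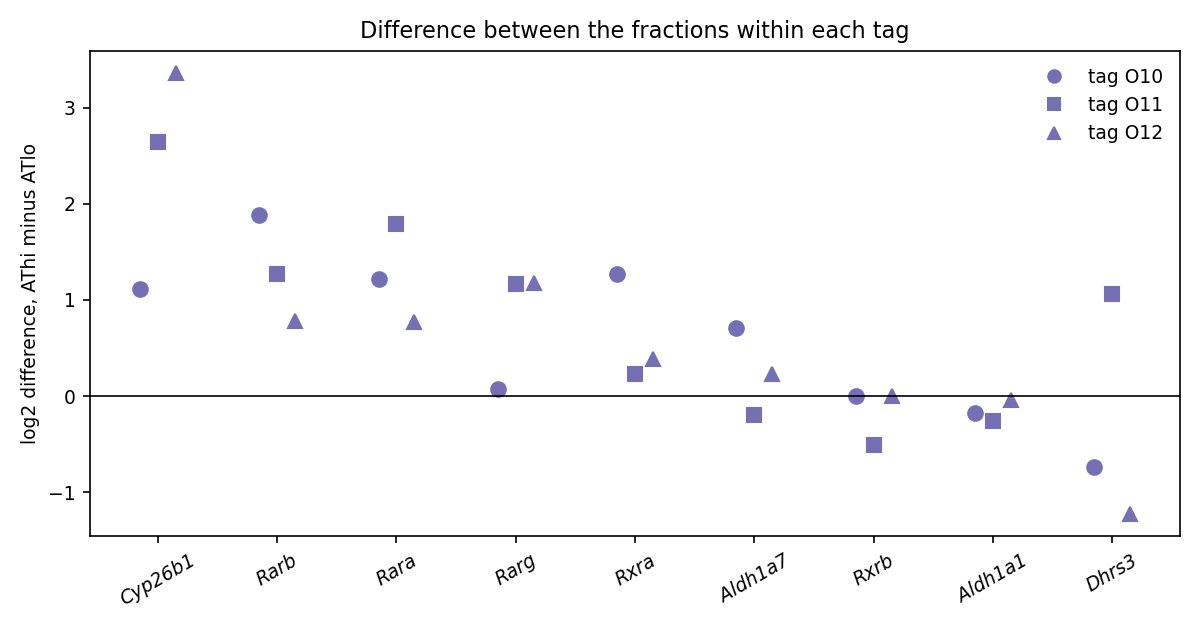
Difference between AThi and ATlo on the log2(normalized count + 1) scale within each tag (O10, O11 and O12) for the 9 genes; points are pairs, and the line at 0 marks equal levels. All 3 pairs lie above 0 for Cyp26b1 (1.11, 2.64 and 3.36), Rarb (1.88, 1.26 and 0.78) Rara (1.22, 1.79 and 0.77), Rarg (0.07, 1.17 and 1.18) and Rxra (1.26, 0.23 and 0.39). All 3 lie below 0 for Aldh1a1 (-0.18, -0.26 and -0.04) and Rxrb, whose O10 and O12 pairs are level to 2 decimals.

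Rarb, the receptor gene whose promoter holds the DR5 match shown above, had its highest level in AThi, an intermediate one in ATlo and its lowest in young. It lies on chromosome 14 from 16430839 to 16819156 on the minus strand (ENSMUSG00000017491). It was at 1212 (O10), 978 (O11) and 822 (O12) normalized counts in AThi, at 328, 406 and 479 in ATlo, and at 172 and 245 in young. The 3 groups did not overlap. Within the old groups the tags ran in opposite order: AThi was highest and ATlo lowest in O10. Group means were 1004 ± 196 in AThi, 405 ± 75.2 in ATlo (SD, n = 3 each) and 209 ± 51.3 in young (SD, n = 2).

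In the authors' deposited table Rarb had log2 fold changes of 1.31 (SE 0.27, adjusted p 5.9e-05) for AThi against ATlo, 2.27 (SE 0.30, adjusted p 1.9e-11) for AThi against young and 0.96 (SE 0.30, adjusted p 0.042) for ATlo against young. These are 2.48-fold, 4.81-fold and 1.94-fold. The edgeR quasi-likelihood test gave adjusted p-values of 0.041, 0.0086 and 0.23. With the tag as a replicate block, edgeR gave 0.077 for AThi against ATlo. The last comparison was also lost with DESeq2 when AThi O11 (adjusted p 0.085), ATlo O11 (0.12) or ATlo O12 (0.18) was left out. It was lost too without young D11 and without the 3 libraries tagged D12 or O12, where 1 young library remained.

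Rarb lies tail to tail with Top2b, the DNA topoisomerase II beta gene, on the opposite strand. The last 3 of the 8 exons of the transcript Rarb-201 lie inside the last exon of Top2b (16430299 to 16435462), and they make up 1793 of its 3108 bases (57.7%). Without a stated strand setting, reads there cannot be told apart. Top2b was far more abundant and did not follow Rarb: it was at 21946 and 20032 normalized counts in young, at 19412, 15283 and 20462 in AThi, and at 19332, 19065 and 22086 in ATlo. The ranges of Top2b overlapped between all 3 groups, and the Rarb count came to 0.786% to 1.22% of the Top2b count in young, 4.02% to 6.40% in AThi and 1.70% to 2.17% in ATlo.

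Rara, the receptor gene known for its role in myeloid maturation, had its highest levels in the AThi libraries. It lies on chromosome 11 from 98927818 to 98974942 on the plus strand (ENSMUSG00000037992). It was at 591 (O10), 584 (O11) and 754 (O12) normalized counts in AThi, at 253, 168 and 441 in ATlo, and at 327 and 333 in young. AThi overlapped neither group, whereas the young values fell inside the ATlo range, whose highest library was O12. Group means were 643 ± 96.4 in AThi, 287 ± 139 in ATlo (SD, n = 3 each) and 330 ± 3.83 in young (SD, n = 2).

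In the authors' deposited table Rara had a log2 fold change of 1.16 (SE 0.36, adjusted p 0.020) for AThi against ATlo, or 2.24-fold. The values in the authors' deposited table were 0.96 (SE 0.40, adjusted p 0.18) for AThi against young and -0.20 (SE 0.40, adjusted p 0.91) for ATlo against young. The first call had little margin. The edgeR quasi-likelihood test gave an adjusted p of 0.14, and DESeq2 without AThi O10, O11 or O12 or without ATlo O10 or O11 gave 0.057, 0.058, 0.12, 0.088 and 0.095.

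Rarg, the third RAR gene, is known for its part in HSC self-renewal. It lies on chromosome 15 from 102234938 to 102257517 on the minus strand (ENSMUSG00000001288). It was at 419 (O10), 468 (O11) and 385 (O12) normalized counts in AThi, at 398, 208 and 169 in ATlo, and at 206 and 171 in young. The AThi libraries lay above both young ones, and 1 ATlo library, O10, fell inside the AThi range while the other 2 were close to young. For Rarg the authors' deposited table gave log2 fold changes of 0.71 (SE 0.37, adjusted p 0.27) for AThi against ATlo, 1.17 (SE 0.42, adjusted p 0.084) for AThi against young and 0.46 (SE 0.42, adjusted p 0.72) for ATlo against young. Across 15 alternatives the value for AThi against ATlo ran from 0.49 (adjusted p 0.62, without ATlo O12) to 1.17 (adjusted p 0.011, without ATlo O10), and the last was the 1 that called it. Without the 3 libraries tagged D12 or O12, which left 1 young library, Rarg was not called. For AThi against young 1 of 13 alternatives called Rarg, again that without ATlo O10 (adjusted p 0.014).

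Added per kilobase, the 3 RAR genes came to 419 to 464 in AThi, 165 to 232 in ATlo and 156 to 163 in young. The AThi libraries were clear of the rest, and the ATlo and young ranges lay side by side. Rarb made up 21.0% to 28.6% of this sum in young, 37.2% to 49.6% in AThi and 29.2% to 46.9% in ATlo, so its share in both old fractions was above that in young and overlapped between them.

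Rxra and Rxrb encode retinoid X receptors, which pair with the RARs and with many other nuclear receptors. Rxra lies on chromosome 2 from 27676440 to 27762957 on the plus strand (ENSMUSG00000015846). It was at 1554 (O10), 885 (O11) and 788 (O12) normalized counts in AThi, at 647, 757 and 601 in ATlo, and at 666 and 578 in young. AThi did not overlap the other groups, but O10 alone stood far above them and the other 2 AThi libraries came close to ATlo O11. For Rxra the authors' deposited table gave log2 fold changes of 0.69 (SE 0.28, adjusted p 0.12) for AThi against ATlo, 0.79 (SE 0.31, adjusted p 0.15) for AThi against young and 0.10 (SE 0.31, adjusted p 0.95) for ATlo against young. The value depended most on AThi O10, without which DESeq2 gave 0.33 (adjusted p 0.54) for AThi against ATlo and 0.42 (adjusted p 0.56) for AThi against young. Of 15 alternatives for AThi against ATlo 1 called Rxra, that without AThi O12 (0.87, adjusted p 0.040), as did 1 of 13 for AThi against young (adjusted p 0.043, also without AThi O12).

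Rxrb lies on chromosome 17 from 34031812 to 34038399 on the plus strand (ENSMUSG00000039656). It was at 746 and 409 normalized counts in young, at 603 (O10), 535 (O11) and 629 (O12) in AThi, and at 603, 762 and 630 in ATlo. Of the 6 old libraries, 5 lay between the 2 young ones and ATlo O11 lay above both, and 2 of the 3 pairs were level. For Rxrb the authors' deposited table gave log2 fold changes of -0.18 (SE 0.27, adjusted p 0.81) for AThi against ATlo, 0.03 (SE 0.30, adjusted p 0.99) for AThi against young and 0.20 (SE 0.30, adjusted p 0.87) for ATlo against young.

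Over the 9 genes, the authors' deposited table called 3 higher (Cyp26b1, Rara and Rarb) and 0 lower in AThi against ATlo, where 7.9% of the 17908 genes with an adjusted p were called, 3.47% higher and 4.43% lower. In AThi against young, calls in the authors' deposited table were 3 higher (Aldh1a1, Cyp26b1 and Rarb) and 0 lower, where 5.04% of 19064 genes were called, 3.13% higher and 1.91% lower. For ATlo against young the authors' deposited table called 2 higher (Aldh1a1 and Rarb) and 0 lower, where 4.34% of 18678 genes were called, 2.37% higher and 1.98% lower. Both comparisons with young use the same 2 young libraries. The median log2 fold change of the 9 genes in the authors' deposited table was 0.69, 0.99 and 0.23 in the 3 comparisons, where the median of all genes was 0.02, 0.00 and 0.01. Since the members were chosen with these contrasts known, nothing is read from the counts or the medians. The edgeR quasi-likelihood test called 1 member (Rarb) in AThi against ATlo, where it called 1.41% of 19903 genes and 0.301% as higher. It called 2 members (Aldh1a1 and Rarb) in AThi against young, where it called 1.21% of genes and 0.844% as higher, and 1 (Aldh1a1) in ATlo against young, where it called 0.653% and 0.467%. All of these members were higher.

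Counted by library ranges, 4 of the 9 genes lay wholly higher in AThi than in ATlo (Rara, Rarb, Rxra and Cyp26b1), where 10.7% of all tested genes did. Against young, 7 lay wholly higher in AThi (Aldh1a1, Aldh1a7, Cyp26b1, Rara, Rarb, Rarg and Rxra), where 13.9% of all tested genes did, and 3 in ATlo (Aldh1a1, Dhrs3 and Rarb), where 16.1% did. In these comparisons 0 members lay wholly lower, where 11.6% (AThi against ATlo), 14.2% (AThi against young) and 15.2% (ATlo against young) of all tested genes did.

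**Figure D3:**
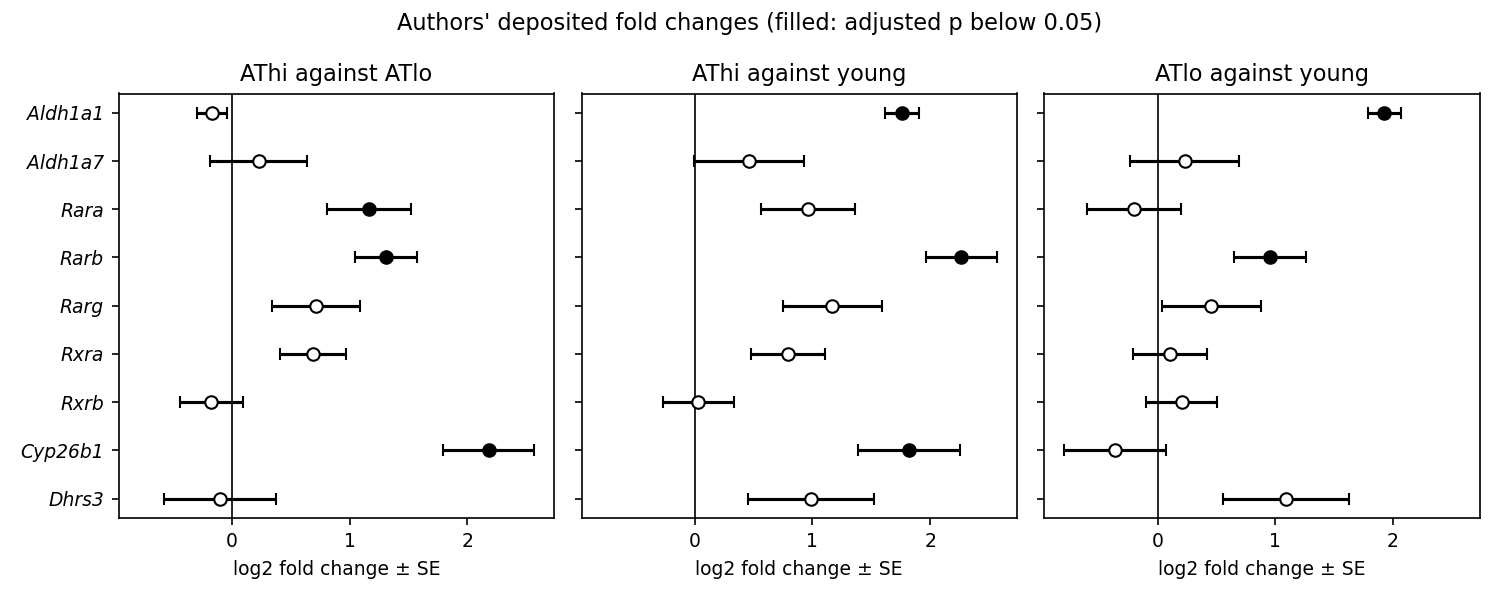
Log2 fold change of the 9 genes in the authors' deposited table for AThi against ATlo, AThi against young and ATlo against young; bars through the points are 1 standard error and filled points have an adjusted p below 0.05. Aldh1a1 is near 0 between the old fractions (-0.17) and at 1.76 and 1.93 against young, whereas Cyp26b1 is at 2.18 and 1.82 in the comparisons that involve AThi and at -0.36 in ATlo against young.

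Other genes of the pathway were taken from 5 lists of 88 genes, of which 50 had a row; Aldh1a2, Aldh1a3, Cyp26a1, Rxrg and Crabp2 are not analysed here. In AThi against ATlo, 5 of the 49 with an adjusted p were called higher and 3 lower in the authors' deposited table, beside the 3.47% and 4.43% of all genes given above. Their median log2 fold change in the authors' deposited table was 0.11, against 0.02 for all genes. In AThi against young the authors' deposited table called 5 of 50 higher and 0 lower, where 3.13% and 1.91% of all genes were. In ATlo against young it called 4 higher and 1 lower, where 2.37% and 1.98% of all genes were.

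Among 28 listed enzymes that handle retinoids, 11 had a row. The authors' deposited table called 1 higher and 2 lower in AThi against ATlo, where 3.47% and 4.43% of all genes were. It called 0 in either comparison with young. Rdh10, which oxidises retinol to retinaldehyde, was at 1134 (O10), 918 (O11) and 1291 (O12) normalized counts in AThi, at 653, 602 and 694 in ATlo, and at 552 and 898 in young. Its AThi libraries were above all others, and its log2 fold change in the authors' deposited table was 0.78 (SE 0.24, adjusted p 0.022). Dhrs4, a retinal and carbonyl reductase, was at 525, 625 and 551 in AThi, at 889, 1077 and 952 in ATlo, and at 623 and 921 in young. AThi lay below ATlo in every pair, and the authors' deposited table gave -0.78 (SE 0.22, adjusted p 0.0095). Adh5, an alcohol dehydrogenase best known for removing formaldehyde, had, per the authors' deposited table, a log2 fold change of -0.44 (SE 0.12, adjusted p 0.0072). With edgeR the adjusted p of these 3 genes was 0.14, 0.11 and 0.11. With DESeq2 the call of Rdh10 was lost when AThi O10 or O12 or any 1 ATlo library was left out, and those of Dhrs4 and Adh5 when AThi O10, ATlo O11 or ATlo O12 was.

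Of 13 listed carriers, which bind or move retinoids, 3 had a row and 0 were called in any comparison of the authors' deposited table.

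Of 14 other RXR genes and receptors that pair with RXR, 9 had a row. The 1 called was Nr4a2, an orphan nuclear receptor, in ATlo against young, where 2.37% of all genes were called higher. Its level was 621 ± 154 normalized counts in ATlo and 402 ± 109 in AThi (both SD, n = 3) and 194 ± 25.2 in young (SD, n = 2). The authors' deposited table gave 1.67 (SE 0.35, adjusted p 1.3e-04) for ATlo against young, and the call held with DESeq2 when each of the 8 libraries was left out in turn, with an adjusted p of 0.078 in edgeR.

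All 15 listed coregulators, the coactivators and corepressors that RARs recruit, had a row. In AThi against ATlo the authors' deposited table called 3 higher and 1 lower, where 3.47% and 4.43% of all genes were. Hdac3, the deacetylase of the NCoR and SMRT corepressor complexes, was at 569 (O10), 1020 (O11) and 741 (O12) normalized counts in AThi, at 1383, 1547 and 1380 in ATlo, and at 753 and 806 in young. ATlo stood above both other groups with no overlap. In the authors' deposited table its log2 fold change was -0.89 (SE 0.23, adjusted p 0.0038) for AThi against ATlo and 0.88 (SE 0.26, adjusted p 0.021) for ATlo against young. By the authors' deposited table, 3 coregulators were higher in AThi than ATlo: the coactivator genes Ncoa1 (log2 fold change 0.48, SE 0.14, adjusted p 0.0091) and Crebbp (0.41, SE 0.13, adjusted p 0.027) and the ligand-dependent corepressor Nrip1 (0.36, SE 0.11, adjusted p 0.022). The authors' deposited table also called Ncoa1 in AThi against young (0.48, SE 0.15, adjusted p 0.034). With edgeR none of these 4 genes passed in AThi against ATlo (adjusted p 0.096 for Hdac3, 0.097 for Ncoa1, 0.13 for Crebbp and 0.11 for Nrip1), although all 4 had an unadjusted p below 0.05. Left-out libraries ended the DESeq2 calls of Ncoa1 (AThi O10, ATlo O10 or O12), Crebbp (AThi O12, ATlo O10 or O11) and Nrip1 (AThi O10 or O12, ATlo O11) but not that of Hdac3 in AThi against ATlo. The call of Hdac3 in ATlo against young was lost without either young library or any 1 ATlo library, and that of Ncoa1 in AThi against young without any 1 library but AThi O11.

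Of 18 listed target genes of retinoic acid, 12 had a row. Cd38, a surface NAD-consuming enzyme induced by retinoic acid in myeloid cells, was at 2335 (O10), 2243 (O11) and 2445 (O12) normalized counts in AThi, at 1156, 1072 and 1326 in ATlo, and at 640 and 893 in young. Its 3 groups did not overlap and stood in the order of Rarb. For Cd38 the authors' deposited table gave log2 fold changes of 0.98 (SE 0.18, adjusted p 3.7e-06) for AThi against ATlo, 1.61 (SE 0.20, adjusted p 3.4e-13) for AThi against young and 0.63 (SE 0.20, adjusted p 0.044) for ATlo against young. The edgeR adjusted p-values were 0.026, 0.0056 and 0.23, and the first 2 calls held with DESeq2 when each library was left out in turn, whereas the third was lost without any 1 library but young D12.

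By calls in the authors' deposited table, 4 of the 12 targets were higher in AThi than young, where 3.13% of all genes were, and 2 were higher and 1 lower in ATlo than young, where 2.37% and 1.98% of all genes were. In AThi against ATlo, 11 targets had an adjusted p. The authors' deposited table called 1 of them higher, Cd38, where 3.47% of all genes were. The difference between these counts was not tested. Tgm2, tissue transglutaminase (0.75, SE 0.17, adjusted p 5.3e-04), and Bhlhe40, a transcription factor also known as Stra13 (1.29, SE 0.36, adjusted p 0.011), were, per the authors' deposited table, higher in AThi than young. Itga4, an integrin alpha chain, was, per the authors' deposited table, lower in ATlo than young (log2 fold change -0.48, SE 0.14, adjusted p 0.021). The median log2 fold change of the 12 targets in the authors' deposited table was 0.82 for AThi against young and 0.34 for ATlo against young. For the 11 with an adjusted p in AThi against ATlo it was 0.32. The medians of all genes in these comparisons were 0.00, 0.01 and 0.02. Since the lists were chosen with earlier results of these data known, nothing is read from the target medians. With edgeR, Cd38 was the 1 target called in AThi against young, with adjusted p 0.069 for Tgm2 and 0.19 for Bhlhe40. Single left-out libraries ended the DESeq2 calls of Tgm2 (young D11), Bhlhe40 (either young library, AThi O10 or O11) and Itga4 (young D11, ATlo O10 or O12).

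**Figure D4:**
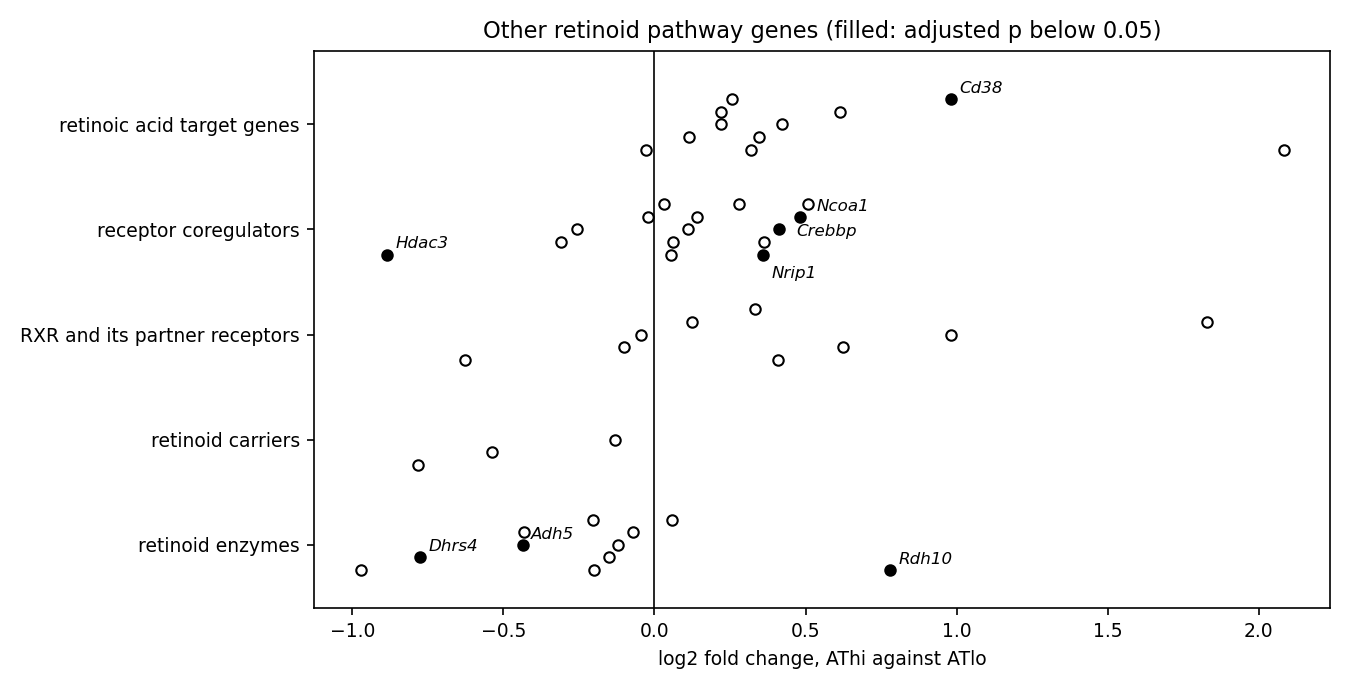
Log2 fold change of the other retinoid pathway genes in the authors' deposited table, grouped by list along the vertical axis, for AThi against ATlo; filled points have an adjusted p below 0.05 and carry gene names. Cd38 lies farthest to the right of the named genes at 0.98 and Hdac3 farthest to the left at -0.89.

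Genes whose levels were most like those of Aldh1a1 and of Rarb were ranked by Pearson r of log2(normalized count + 1) over the 8 libraries. The ranking covered 11021 genes whose base mean was at least 100, with predicted, clone, pseudogene and mitochondrial names left out. The 8 points share the 3 groups and the tags, so a high r describes a shared ordering of these libraries and no more. For Aldh1a1 the 5 highest were Zg16 (r = 0.99), Gpx8 (0.99), Plscr2 (0.99), Tdrd9 (0.98) and the metallothionein gene Mt1 (0.98), all of them low in young and high in both old fractions. Plscr2 had means of 192, 1919 and 2409 normalized counts in young, AThi and ATlo. For Rarb they were Pclo, Sptlc2 (r = 0.98), the junctional adhesion gene Jam2 (0.98), Cd38 (0.97) and Naip2 (0.97), with the order young, ATlo, AThi. Jam2 had means of 1537, 6925 and 3070 in young, AThi and ATlo. Between the members themselves, r with Rarb was 0.76 for Rxra and Aldh1a7, 0.70 for Rarg and Aldh1a1, 0.67 for Rara and 0.62 for Cyp26b1, and r with Aldh1a1 was 0.16 for Cyp26b1 and 0.08 for Rara. Ranked by Spearman's rho, 0 of the 5 genes stayed among the first 5 for Aldh1a1 and 1 for Rarb.

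The authors also deposited a table of 726 upstream regulators for AThi against ATlo, which holds a row for RARA. There the authors' deposited table gave an activation score of -2.208 with the state inhibited, an overlap p of 1.18e-07 and a log ratio of 1.162 for the Rara transcript itself. Of the 25 target genes listed, 24 matched a symbol of the contrast table, with 4 higher and 20 lower in AThi by the sign of the log2 fold change in the authors' deposited table. The 4 higher were Cyp26b1, Rara and Rarb, which are members, and Cd53, named after its value was seen. The inhibited state thus stands beside a higher level of 3 members and a lower level of 20 of the other 21 matched targets. The program behind the regulator table is named in none of the sources used here.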

How the data were processed

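Libraries were made from about 10000 HSCs each, with RNA of an integrity number over 9.0 collected on more than 1 sort day, and read as paired ends of 50 bases, per the labels' protocols. Per the submitters' processing notes, the tools were STAR, featureCounts, DESeq2, FastQC and MultiQC, on GRCm38, with versions, annotation and strandedness not given in the sources used here. For each gene, the authors' deposited contrast tables hold the log2 fold change and its standard error, the Wald score, raw and adjusted p-values, and a normalized signal per library (normalized count). The deposited regulator table holds the authors' activation score, overlap p-value and log ratio.

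The deposited DESeq2 contrasts, fitted over young, AThi and ATlo without a term for the tag, are the main test. Genes were called at a Benjamini-Hochberg adjusted p below 0.05 over all genes. Dividing each column of the deposited signal by the value of 1 read gave whole read counts, within 0.01, for 100% of values. On these reads DESeq2 1.42.0 repeated the deposited numbers of calls (1414, 961 and 811), and the quasi-likelihood test of edgeR 4.0.16 (R 4.3.3) was the alternative. Both were also run on simulated data whose spread followed the fitted trend, with no tag effect. That run cannot decide which tool's number of calls is right for these libraries. The log2(normalized count + 1) scale served for pairs and correlations. Python 3.11.15, pandas 2.3.3, scipy 1.17.1 and matplotlib 3.10.9 were used. Exon lengths and positions are from GENCODE on GRCm38, and promoters from RefSeq.

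Columns were matched to groups only, since their tags are not the labels' replicate numbers. The labels say that AThi and ATlo were paired; libraries with the same tag deviated together from their group means (r = 0.21, 0.16 and 0.37 over 13611 genes), so the tag was taken as the pair. The labels call the libraries biological replicates; reads carry no molecular identifiers, so depth covers counting error only. Libraries of 1 group differed beyond sampling noise in every pair (chi-square per degree of freedom 51.2 to 107).

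The members and the lists were chosen with earlier results of these data known. Named were all members, every other pathway gene called in any comparison (up to 4 per list and comparison), and the 5 genes most like Aldh1a1 and Rarb; the values of some listed genes are not reported here. The sort day of each library, not given in the sources used here, was not tested.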

Additional observations from a re-analysis of the deposited data

How the results depend on the processing

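Counts of called genes depended on the tool. In AThi against ATlo, 1414 genes were called in the deposited table. With edgeR, 280 were called with TMM, 286 with DESeq2 size factors and 280 with no filter on low counts. Members went from 3 to 1 in each of these 3 settings, and other pathway genes from 8 to 1. The filter left 19903 of the 19909 genes, so the setting without it is nearly the same fit. In AThi against young the deposited 961 became 240, 239 and 240, and other pathway genes went from 5 to 1. In ATlo against young 811 became 130 in each, members went from 2 to 1 and other pathway genes from 5 to 0, where 11 of 50 had an unadjusted p below 0.05 in edgeR. With the replicate block (old libraries, AThi against ATlo), edgeR called 311 genes, 0 members (5 at an unadjusted p below 0.05, 3 by DESeq2 with the block) and 1 other pathway gene, while DESeq2 called 1954 genes, 3 members and 11 other pathway genes.

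Without the 3 libraries tagged D12 or O12, chosen after seeing the data, DESeq2 called 793, 582 and 482 genes in the 3 comparisons, 3, 2 and 1 members, and 1, 4 and 2 other pathway genes. Leaving out 1 library at a time, AThi against ATlo gave 932 (without ATlo O11) to 1422 genes, 2 to 3 members and 3 (without AThi O10 or ATlo O11) to 10 other pathway genes. AThi against young gave 585 (without young D12) to 1093 genes, 2 to 4 members and 2 (without young D11) to 6 other pathway genes. ATlo against young gave 362 (without young D11) to 894 genes, 1 (without young D11, AThi O11, ATlo O11 or ATlo O12) to 3 members and 2 (without young D11, ATlo O10 or ATlo O12) to 5 other pathway genes. Where a left-out library leaves 1 young library, its spread is taken from the other groups.

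Of 369 values of single members under an alternative, 336 kept their side of the threshold, 27 lost it, 6 gained it and 0 reversed as called values. Only a value called in the deposited table can count as lost, and most of the 369 belong to genes and comparisons not called there. The 27 losses are thus a larger share of the called values than of the 369. They fell on Rara, Cyp26b1 and Rarb. Some uncalled log2 fold changes turned sign. That of Dhrs3 in AThi against ATlo kept its sign in 11 of 15 alternatives. It turned to 0.24 without the 3 libraries named above and to 0.25 without AThi O12 alone. Rxrb in AThi against young kept its sign in 10 of 13 and turned to -0.39 without those 3 libraries. In ATlo against young, Rara and Cyp26b1 each kept their sign in 12 of 13 alternatives and Rxrb in 11. The cause of these shifts was not tested. Depth limits Aldh1a7 most, at 84 reads in its lowest library.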
